A study of Mus musculus with 4 samples.

Results

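The regions described here are the most strongly enriched CpG islands of 4 mouse embryonic stem cell samples: 662 of 14121 measured regions (4.69%), holding 2939 of 95657 probes. They were chosen by their measured level. A region is a run of at least 3 array probes whose starts lie at most 500 bp apart, and its level is the average, over those probes, of the log2 ratio of immunoprecipitated to whole DNA, with the median of each array set to 0. Members are the regions whose level, averaged over the 4 arrays, was above 3, so their high level is the choice itself and is given as a description. Positions are as in the files and were read as mouse build mm8, although no label or header names a build. Regions carry no gene names in the files and are named by position, and gene, exon and promoter annotations were not used here.

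CpG islands are short stretches rich in the dinucleotide CpG, and most of them stay free of methylation in mammalian cells. Those known to be methylated include one parental copy of imprinted control regions, promoters of germ line genes and islands inside gene bodies. In methylated DNA immunoprecipitation (MeDIP), an antibody against 5-methylcytidine pulls down methylated fragments, and recovery grows with the number of methylated CpGs in a fragment as well as with the share of cells methylated, so a level is an enrichment and not a percentage of methylated cytosines. Parp-1 is a nuclear enzyme that builds poly(ADP-ribose) chains on proteins. PJ34 is a chemical inhibitor of Parp-1 and related enzymes.

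All 4 samples come from J1, an embryonic stem cell line. They were untreated wild type J1, Parp-1 deficient clone 210-58, Parp-1 deficient clone 226-47 (both made from J1), and J1 treated with the inhibitor PJ34, with 1 array each. Each clone is a single cell line, and the labels give neither the dose or time of PJ34 nor how the clones were made. Antibody-bound DNA carried Cy5 and whole DNA of the same cells Cy3 on every array. One slide held the wild type and 210-58 arrays, and another the 226-47 and PJ34 arrays. Wild type and PJ34 had no replicate, so the spread behind the p-values comes from the 2 clones alone, pooled over regions of like level and not taken region by region, and the number of arrays limits the precision of every comparison.

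The members were bright in the antibody channel and near the typical level in the other. The median raw Cy5 signal over member probes was 1087 on the wild type array, 1169 on clone 210-58, 1029 on clone 226-47 and 1457 on PJ34, against 132.5, 136, 154 and 132 over all probes. The raw Cy3 signal of the same probes was 264 to 281.5, against 293 to 310.5 over all probes. No member probe was saturated, and at least 99.7% were well above background in each channel of each array. The level of the whole DNA alone, centred in the same way, had a median of -0.19 over members and 0.04 over the other regions, while the antibody channel had medians of 3.78 and 0.02.

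On the wild type array the members ran from 2.49 to 4.74 with a median of 4.07. Clone 210-58 ran from 0.53 to 5.41 with a median of 4.0. Clone 226-47 ran from 1.73 to 4.92 with a median of 3.59. PJ34 ran from 2.74 to 5.86 with a median of 4.46. The ranges of the arrays overlapped throughout, but the order within a region was uneven. PJ34 was the highest array in 556 of the 662 members (84.0%, all regions 22.3%) and clone 226-47 the lowest in 546 (82.5%, all regions 18.1%). These counts are for arrays centred on their medians and otherwise left as deposited, and they depended on the processing. With normexp background correction PJ34 was highest in 528 members (79.8%, all regions 18.5%) and clone 226-47 lowest in 351 (53.0%, all regions 20.5%). After loess the counts were 320 (48.3%, all regions 24.0%) and 125 (18.9%, all regions 18.7%). After quantile normalization they were 123 (18.6%, all regions 24.1%) and 177 (26.7%, all regions 14.999%). After scaling each array to the same median absolute deviation both were 21 (3.17%), against 19.2% and 7.68% of all regions. Whether members or all regions had the higher share thus depended on the processing. No member was above 5 on the wild type or the 226-47 array, whereas 33 were on clone 210-58 and 154 on PJ34. The wild type levels were also the most compressed, with an SD over members of 0.42 against 0.64, 0.67 and 0.65 on clone 210-58, clone 226-47 and PJ34.

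**Figure D1:**
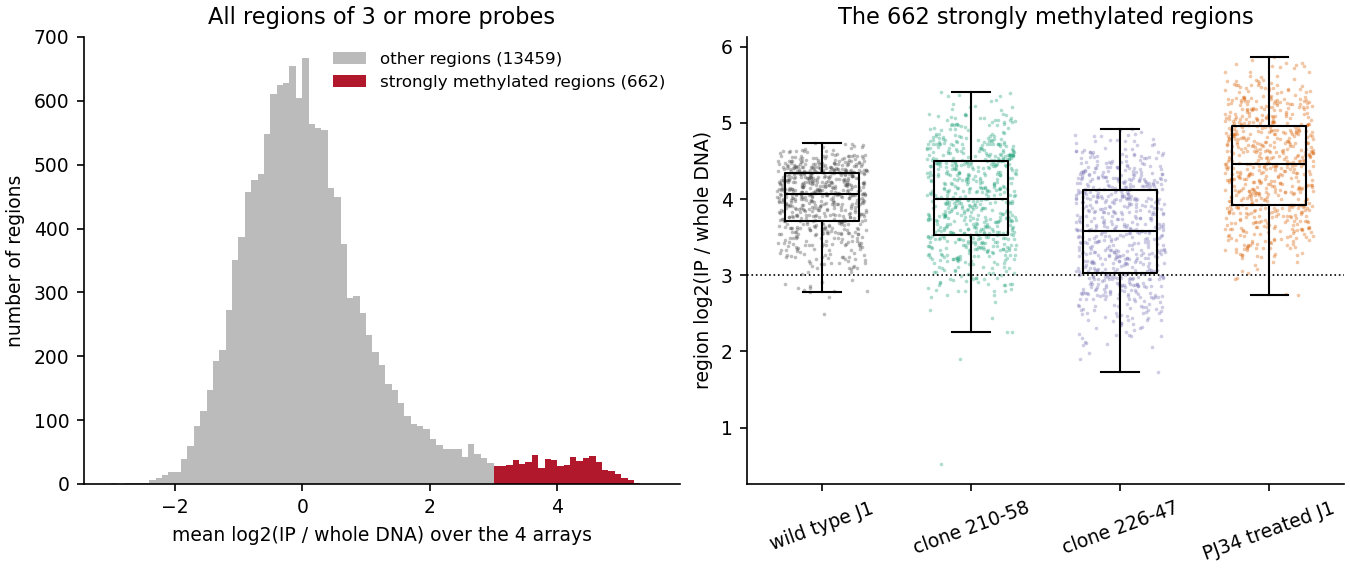
Left, the number of regions of at least 3 probes by their log2(IP / whole DNA) averaged over the 4 arrays, with the 662 members in red and the other regions in grey. Right, the level of each member on each array, with the threshold of 3 dotted; the PJ34 array has the highest median (4.46) and clone 226-47 the lowest (3.59).

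Being above 3 on average did not require being above 3 everywhere. On all 4 arrays together 494 members stood above 3, another 124 did so on 3 arrays and 44 on 2. The arrays spanned at most 1 within a member in 434 members (65.6%) and at least 2 in 9 (1.36%, against 0.673% of all regions). Around the threshold, the members just inside were on chromosome 9 at 107968495-107968901 (mean 3.01), on chromosome 11 at 96130538-96131138 (3.01) and on chromosome 5 at 137584090-137584390 (3.02). Those just outside were on chromosome 7 at 29501590-29502108 (2.996), on chromosome 19 at 59247150-59247697 (2.99) and on chromosome 5 at 140225530-140226006 (2.99). A further 519 regions lay between 2 and 3.

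The highest mean, 5.21, belonged to a region of 3 probes on chromosome 19 at 46707544-46707835, which read 4.69 on wild type, 5.39 on clone 210-58, 4.91 on clone 226-47 and 5.86 on PJ34. Next came chromosome 7 at 74377912-74378205 with 4.68, 5.41, 4.86 and 5.75 on the arrays in the same order. A region of 5 probes on chromosome 17 at 27162245-27162839 read 4.64, 5.36, 4.85 and 5.78. In each of them wild type was the lowest array and PJ34 the highest, and clone 226-47 lay nearer to wild type than clone 210-58 did. The same order held in the fourth and the fifth, on chromosome 11 at 115619586-115619897 (mean 5.13) and chromosome 8 at 108868065-108868710 (5.13), and in the sixth, on chromosome 17 at 12114996-12115404 (5.11).

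To see the level on an array that had no part in the choice, members were chosen again on the mean of the other 3 arrays. Chosen without wild type there were 644 regions, and their wild type median was 4.08, with 628 (97.5%) above 3 and all 644 above 2. Chosen without PJ34 there were 638 regions, whose PJ34 median was 4.5, with 631 (98.9%) above 3 and all above 2. Chosen without clone 210-58 there were 669 regions, with a median of 3.99 in that clone, 610 (91.2%) above 3 and 10 below 2. Chosen without clone 226-47 there were 723 regions, with a median of 3.47 there, 501 (69.3%) above 3 and 21 below 2. High enrichment thus carried over to the array left out in nearly all regions at a level of 2, and least often at a level of 3 in clone 226-47, whose levels were the lowest of the 4 over members.

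Regions that fell below 0 on the left-out array occurred in clone 210-58 (4 regions) and on none of the other arrays. A region of 3 probes on chromosome 18 at 13116490-13116973 read 3.31 on wild type, -1.66 on clone 210-58, 3.6 on clone 226-47 and 4.47 on PJ34. One of 8 probes on chromosome 6 at 4697308-4698444 read 2.78, -0.94, 3.49 and 3.87 in that order. On chromosome 7 at 143104693-143106020, 8 probes gave 3.55, -0.36, 3.72 and 4.59. In these 3 regions clone 210-58 sat at the level of a typical probe or below while the other 3 arrays stayed strongly enriched. The fourth, on chromosome 6 at 30688022-30688551, was more spread, at 2.19, -0.05, 4.5 and 2.77. Whole DNA in clone 210-58 was close to wild type in 3 of the 4 regions (0.15 against 0.06, 0.09 against 0.07 and 0.01 against -0.08). On chromosome 6 at 4697308-4698444 it was higher than in wild type (-0.54 against -0.80). None of the 4 is a member, since the low array pulled the mean over 4 arrays to 3 or under. In clone 226-47 the lowest left-out value was 0.956, on chromosome 13 at 56531867-56532553, where wild type read 3.79, clone 210-58 1.86 and PJ34 4.06.

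Members were small. Their median was 4 probes and 390 bp, against 6 probes and 682 bp for the other regions, and lengths ran from 180 to 3488 bp. Regions of 3 or 4 probes made up 69.0% of members and 27.1% of the rest. The share of regions that are members fell from 12.5% (211 of 1690) at 3 probes and 10.2% (246 of 2408) at 4 probes to 3.46% at 5 or 6, 1.28% at 7 to 9, 0.765% at 10 to 14 and 0.561% (3 of 535) at 15 or more. Averages over fewer probes scatter more, so the single probes were counted too: 13.2% of probes in regions of 3 were above 3, 10.9% in regions of 4, and 1.30% in regions of 15 or more, so the order was the same probe by probe. The longest member, on chromosome 15 at 76005782-76009269 with 26 probes, read 2.79, 3.61, 2.82 and 3.08 on wild type, clone 210-58, clone 226-47 and PJ34.

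The probes of a member were mostly alike. Of the 2939 probes, 2730 (92.9%) had a mean above 3, 2141 (72.8%) were above 3 on every array, and 11 had a mean below 2. The SD over the probes of a region had a median of 0.27 in members, 0.35 in regions between 2 and 3, and 0.95 in all regions outside the set. In the 205 members with at least 5 probes, the mean of the first and last probe lay below the mean of the inner probes in 160. Over all 205 the median of edge minus inner was -0.18. Of 208 such regions between 2 and 3 the edge was lower in 121, with a median of -0.05 over the 208. In 5 members the SD over probes passed 1. The widest, on chromosome 17 at 49758152-49759339, climbed from a probe mean of 0.37 at its first probe to 5.23 at its last, and its region levels of 3.64, 3.54, 2.84 and 4.08 on wild type, 210-58, 226-47 and PJ34 are averages over that slope.

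**Figure D2:**
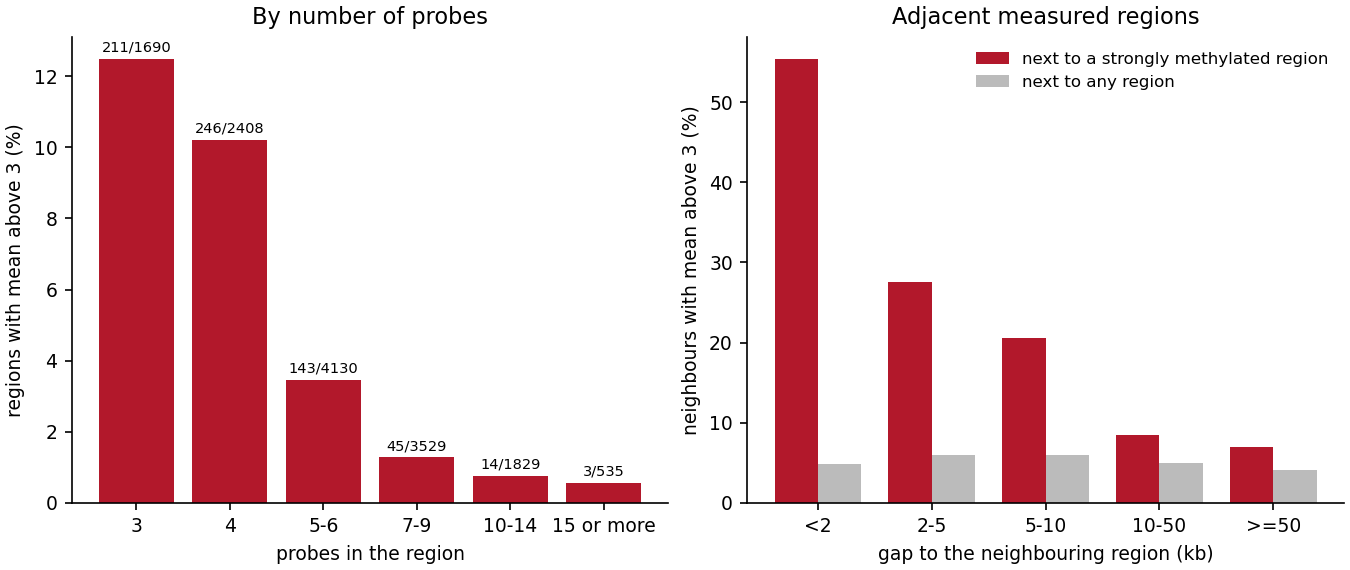
Left, the percentage of regions with a mean above 3 by number of probes, falling from 12.5% at 3 probes to 0.561% at 15 or more. Right, the percentage of adjacent measured regions with a mean above 3 by the gap between them in kb, next to a member (red) and next to any region (grey); at gaps under 2 kb the values are 55.4% and 4.89%.

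High regions lay near each other at short range. Among adjacent measured regions less than 2 kb from a member, 36 of 65 (55.4%) were themselves above 3, with a median level of 3.57, while 4.89% of the close neighbours of any region were. The share was 27.6% at 2 to 5 kb (24 of 87), 20.5% at 5 to 10 kb (24 of 117), 8.44% at 10 to 50 kb (38 of 450) and 7.0% at 50 kb and beyond (42 of 600). Low neighbours were also present at short range: 7 of 65 regions under 2 kb away and 27 of 87 at 2 to 5 kb were below 0. Pairs in which both are members count from each side.

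Within 10 kb of another member lay 75 of the 662, in 33 groups, 26 of them pairs; 587 members stood alone. The largest group held 5 members with 51 probes over 11618 bp on chromosome 15 at 75999499-76011116, at means of 4.83, 4.43, 4.66, 3.08 and 3.96 from first to last. In it every region was higher in clone 210-58 than in wild type, for example 5.06 against 4.46 in the first and 4.30 against 3.87 in the last. The same direction was found in 364 of the 662 members, and in 158 after scaling by the median absolute deviation. For this group only the centred levels are given. Another 6 groups held 3 members each, on chromosomes 3, 4, 8, 9, 10 and 12, and no measured region inside these 7 spans was outside the set.

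Every numbered autosome and the X had members. Chromosome 15 had the highest share among them (51 of 625 regions, 8.16%), followed by chromosomes 5 (6.24%), 8 and 10 (5.93% each). The lowest shares were on chromosomes 1 (22 of 770, 2.86%), 6 (3.03%), 13 (3.11%) and 11 (3.16%), and the X had 17 of 390 (4.36%). On the X the median difference of clone 226-47 from wild type was -0.81, against -0.40 over all members. Next came chromosomes 16 (-0.70) and 14 (-0.66), so the X was not alone in a low median. The median level of the X members was 3.78, and whether level bears on the difference was not tested. The X median was -0.59 against -0.09 over all members after quantile normalization and -0.33 against -0.03 after loess. After scaling by the median absolute deviation it was 0.12 against 0.50, so the sign turned but the X stayed the lower.

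Whole DNA differed from wild type on some chromosomes in the clones. The 48 members on chromosome 8 had a median Cy3 difference of -0.40 in clone 210-58 and -0.43 in clone 226-47, with ratio differences of 0.12 and -0.31. The 38 members on chromosome 11 had Cy3 differences of 0.51 and 0.05 and ratio differences of 0.15 and -0.20. The 6 on chromosome 14 from 92 Mb on had Cy3 differences of -0.57 and -0.71 and ratio differences of -0.34 and -0.51. The 559 members off chromosomes 8, 11 and 14 had Cy3 differences of 0.02 in both clones and ratio differences of 0.03 and -0.41. After scaling by the median absolute deviation the 226-47 ratio difference of the last set was 0.48. The part of copy number in the members' levels was not tested.

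The first comparison asks whether loss of Parp-1 goes with a different level in these regions. By limma with Benjamini-Hochberg adjustment over all 14121 regions, 2 of the 662 members (0.302%) fell in the clones against wild type and none rose, while 2.78% of all regions passed the test (1.59% lower, 1.19% higher). At an unadjusted p under 0.05 there were 18 members, all lower, against 12.0% of all regions (6.45% lower, 5.54% higher). The rule bears on this count: a region that lost its enrichment in both clones has a mean below 3 and is not a member. A region that rose in both clones from a low level on the other arrays is left out in the same way. The SE also grows with the level, from 0.51 in the chromosome 9 member just above 3 to 0.96 in the highest member. A given difference is thus harder to call at a high level, and few calls do not show that the members were stable. Over the members the median difference of the clone mean from wild type was -0.18 (all regions 0.01), and 206 were positive. The median was -0.12 with normexp, -0.08 after quantile normalization and -0.12 after loess. It was 0.13 when each array was scaled to the same median absolute deviation, so its direction depends on the scaling.

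The largest fall was on chromosome 14 at 67076809-67078483, a region of 15 probes and 1675 bp. Its level was 4.25 on wild type, 3.37 on clone 210-58, 1.73 on clone 226-47 and 5.12 on PJ34. Both clones were below wild type and PJ34, and 226-47 was far below 210-58. The difference from wild type was -1.70 (SE 0.53, limma adjusted p = 0.0483), beside an SD of 1.16 between the clones. All 15 probes were lower in each clone than in wild type, from 3.0 to 3.82 in 210-58 and 0.91 to 2.61 in 226-47, against 3.87 to 4.62 in wild type. Its whole DNA differed from wild type by -0.01 and 0.01.

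The other called member was on chromosome 18 at 37058076-37058302, with 3 probes. It read 3.92 on wild type, 2.44 on clone 210-58, 2.23 on clone 226-47 and 3.92 on PJ34. Both clones lay well under the J1 arrays and close to each other (SD 0.147), and the difference of -1.59 had an SE of 0.49 and a limma adjusted p of 0.0467. Both calls were near the threshold: over the alternatives the limma adjusted p ran from 0.00324 to 0.340 for the chromosome 14 region and from 0.00745 to 0.323 for the chromosome 18 region, and neither passed after quantile normalization, loess or scaling by the median absolute deviation, nor with the median over probes (adjusted p of 0.0637 and 0.0840). The chromosome 18 region also missed the threshold with probes well above background only (limma adjusted p of 0.0508). The differences themselves stayed negative: that of the chromosome 14 region was -1.70 after quantile normalization, -1.60 after scaling by the median absolute deviation and -1.09 after loess, and that of the chromosome 18 region -1.43, -1.39 and -0.90.

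The clones often lay on opposite sides of wild type. Both were below wild type in 294 members (44.4%) and both above in 89 (13.4%), and in 275 (41.5%) clone 210-58 was above wild type while 226-47 was below. Over all regions the shares were 33.0%, 35.4% and 10.2%. Both below stayed the commonest class with normexp (305 members, 46.1%), quantile normalization (335, 50.6%) and loess (318, 48.0%). Over all regions its shares were 25.7%, 40.8% and 38.3%, and it was the commonest class there too after quantile normalization and loess. The class with 210-58 above and 226-47 below fell to 181, 80 and 40 members with normexp, quantile normalization and loess (27.3%, 12.1% and 6.04%, all regions 17.2%, 8.53% and 9.94%). After scaling by the median absolute deviation the pattern of sides turned: 123 members had both clones below, 150 both above, 8 had 210-58 above and 226-47 below, and 381 the opposite (18.6%, 22.7%, 1.21% and 57.6%). Over all regions these shares were 33.8%, 40.3%, 4.66% and 21.2%. Within the slide they share, clone 210-58 differed from wild type by a median of 0.03, with 364 members positive; the median was -0.08 after quantile normalization (271 positive), -0.22 after loess (178) and -0.27 after scaling by the median absolute deviation (158). Clone 226-47, on the other slide, differed from wild type by a median of -0.40, with 93 positive, and 54 members were at least 1 lower (8.16%, background 3.92%, of which 2.96% lower) and none at least 1 higher (background 0.963%). This difference was -0.09 after quantile normalization, -0.03 after loess and 0.50, with 531 positive, after scaling by the median absolute deviation, so its direction depends on the scaling. A difference of at least 1 between the clone mean and wild type, with both clones on the same side, was found in 21 members (3.17%, background 3.68%). That count was 19 with clone 210-58 alone (background 6.31%), 6 of them higher and 13 lower, and 54 with clone 226-47 alone.

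**Figure D3:**
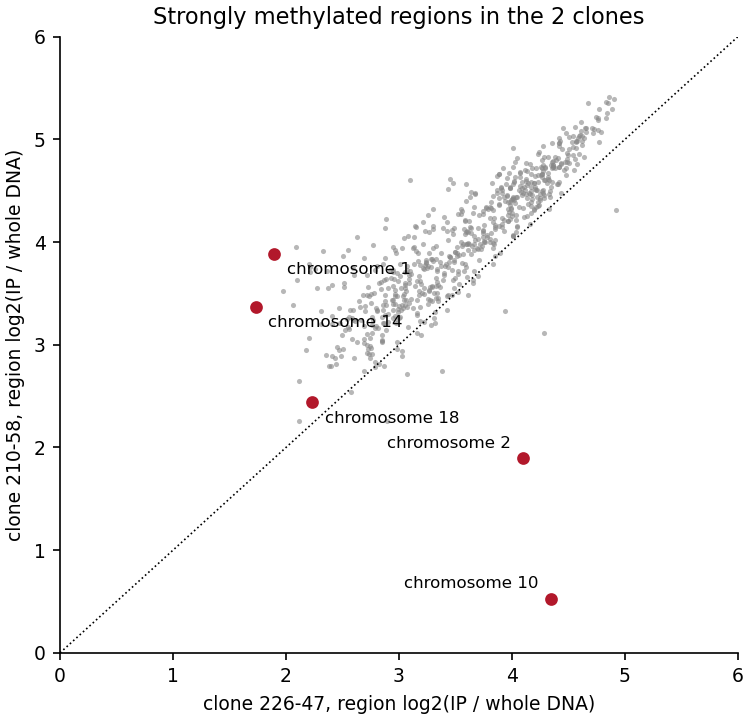
The level of each member in clone 226-47 (x axis) and clone 210-58 (y axis), both as log2(IP / whole DNA). Red points are the called falls against wild type and the largest differences between the clones. Most points lie above the line of equal level: 634 of 662 members are higher in clone 210-58.

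Between the clones the median difference was 0.41 (210-58 minus 226-47; all regions -0.08), and 634 members (95.8%) were higher in 210-58. At a difference of at least 1, a rule of size with no test, 35 were higher in 210-58 and 3 higher in 226-47 (5.74% together, background 2.39%, of which 1.41% and 0.977%). The shift was absent after quantile normalization (-0.01) and turned to -0.17 after loess and -0.81 after scaling by the median absolute deviation, so its direction depends on the scaling; the members below keep theirs.

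Of the 3 members in which the clones differed most, 2 went against the general shift. On chromosome 10 at 12780667-12781550, 8 probes gave 3.43 on wild type, 0.53 on clone 210-58, 4.35 on clone 226-47 and 4.29 on PJ34. In clone 210-58 7 of the 8 probes were below wild type, 5 of them below 0, while the third stood at 4.11 against 3.44 in wild type. On chromosome 2 at 157251405-157252100, 7 probes gave 3.57, 1.90, 4.10 and 4.64 on the arrays in the same order, and all 7 were below wild type in clone 210-58, at 1.59 to 2.25. On chromosome 1 at 188668157-188669074, 7 probes gave 3.40, 3.89, 1.90 and 3.92, and there clone 226-47 was the low array at 7 of 7 probes, from 1.36 to 2.85. Thus the first pair were low in clone 210-58 alone and the last in clone 226-47 alone. The differences of -3.82, -2.20 and 1.99 between the clones kept their signs under quantile normalization (-4.16, -2.64 and 1.70), loess (-2.59, -1.85 and 0.80) and normexp (-3.05, -2.05 and 1.64).

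**Figure D4:**
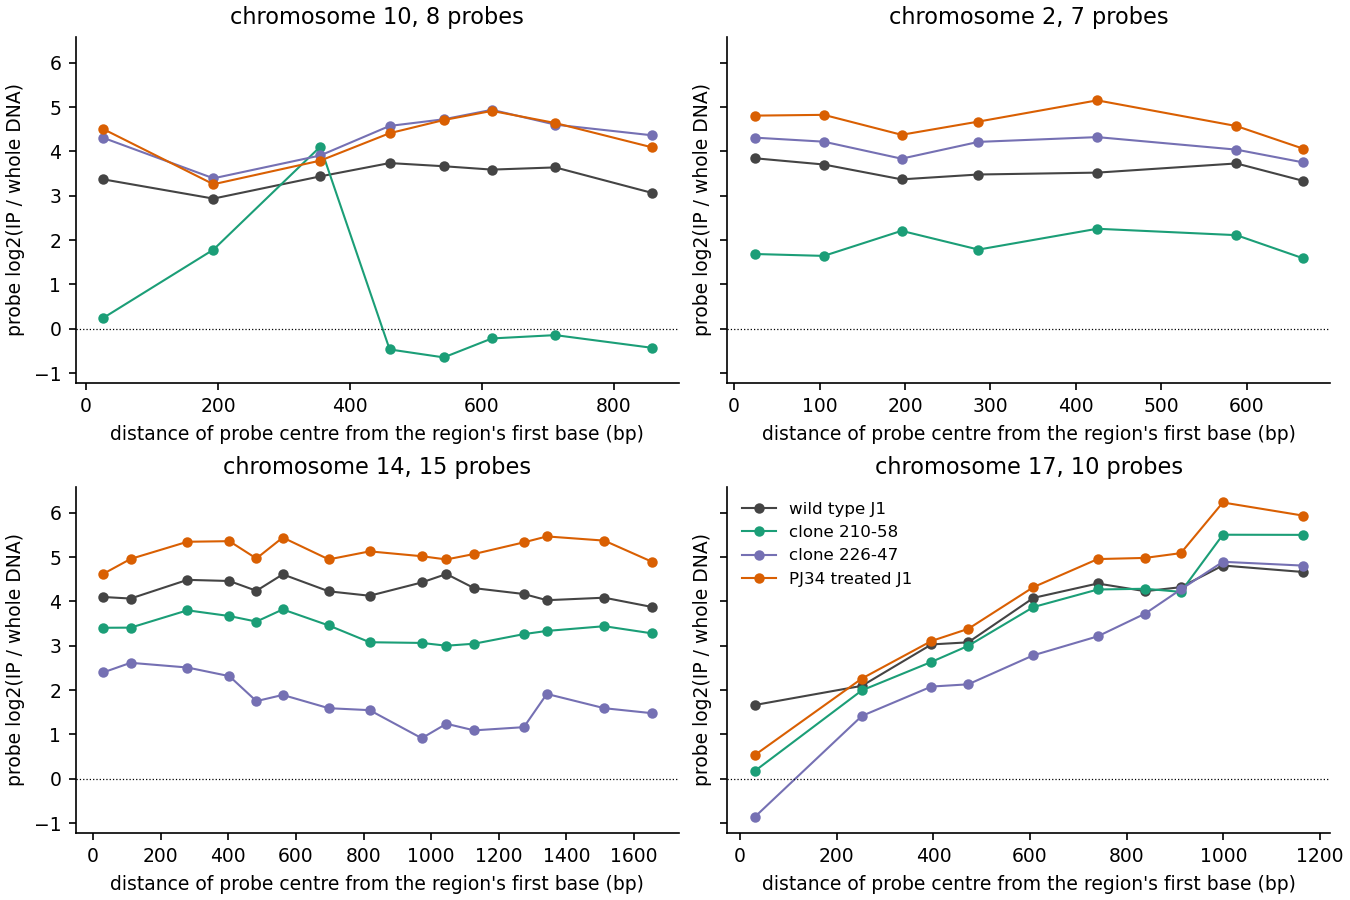
Probe levels, as log2(IP / whole DNA), on each array along selected members, by distance from the region's first base in bp. On chromosome 14 all 15 probes of both clones lie below wild type, and on chromosome 10 the third probe of clone 210-58 stands at 4.11 among low neighbours.

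The second comparison asks how cells given a PARP inhibitor compare with untreated cells. It has 1 array a side and these lie on different slides, so there is no test and slide and treatment cannot be told apart. The median difference of PJ34 from wild type over members was 0.47 (all regions -0.01), with 600 of 662 (90.6%, all regions 48.8%) positive. At least 1 higher were 33 members and at least 1 lower none (4.98%, background 3.70%, of which 2.44% higher and 1.25% lower). The direction depended on the scaling: the median was 0.43 with normexp and 0.09 after loess, but -0.05 after quantile normalization, with 273 members positive, and -0.03 after scaling by the median absolute deviation.

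The difference grew with the level in the clones, which take no part in it. Members with a clone mean below 3 had a median PJ34 minus wild type of 0.17 (83 members). It was 0.22 at 3 to 3.5, 0.38 at 3.5 to 4, 0.60 at 4 to 4.5 and 0.89 at 4.5 to 5, where all 82 members were positive. The 9 members above 5 had 1.15. After quantile normalization the same bins ran from -0.11 to 0.14, still lowest in the lowest bin and highest in the highest. The clones minus wild type, binned by the PJ34 level, ran from -0.39 at 3.5 to 4 and -0.36 at 4 to 4.5 to 0.15 above 5, with 0.09 in the 4 members below 3. Both differences contain the wild type array, whose levels spread least over the members. Whether that bears on the trend with level was not tested.

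**Figure D5:**
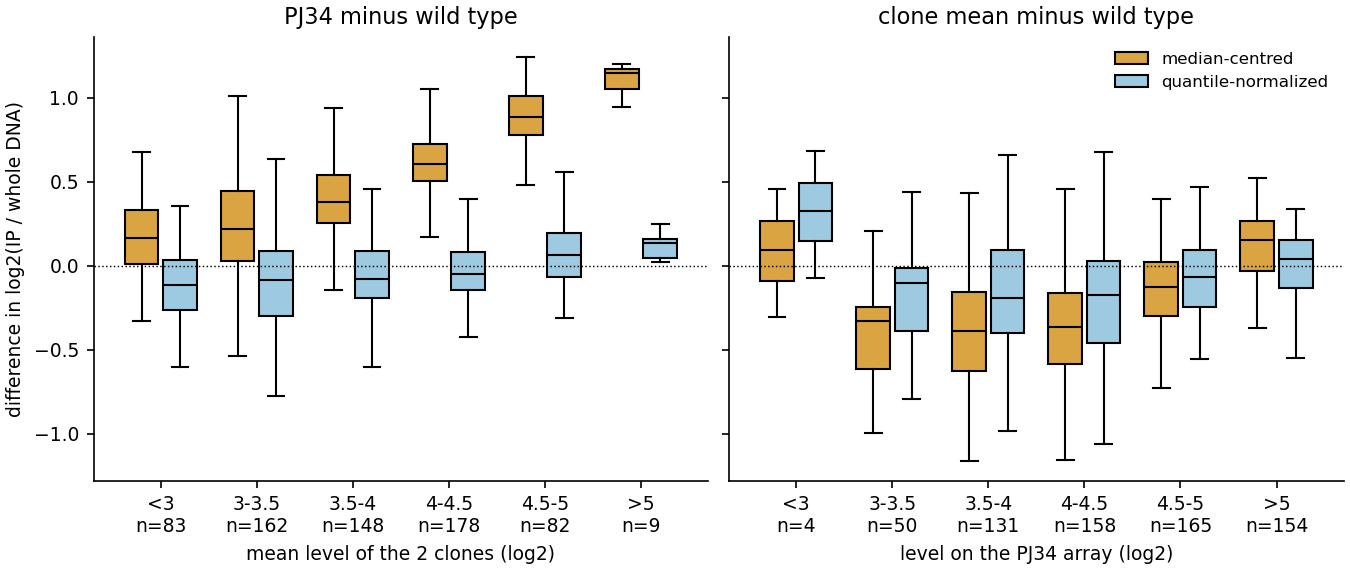
Differences in log2(IP / whole DNA) over members, binned by the level on arrays that take no part in the difference, with the number of members in each bin. PJ34 minus wild type has medians from 0.17 at clone means below 3 to 1.15 above 5.

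The largest PJ34 rise was in a region of 14 probes on an unplaced sequence (Un_random) at 1263085-1264829, which read 4.38 on wild type, 5.36 on clone 210-58, 4.83 on clone 226-47 and 5.79 on PJ34. Its difference was 1.41, and both clones were above wild type too; its whole DNA level was 1.15 above the array median. The next were on chromosome 4 at 139306463-139306784 (1.24), the chromosome 11 region at 115619586-115619897 described above (1.20), chromosome 12 at 112625788-112626150 (1.19) and the highest member of all, on chromosome 19 (1.17). After quantile normalization these 5 rises were 0.57, 0.42, 0.25, 0.26 and 0.14. With the arrays only centred, falls were smaller, but over the members the range was -0.99 to 0.73 after quantile normalization and -1.04 to 0.74 after scaling by the median absolute deviation. A region of 11 probes on chromosome 14 at 78034774-78036077 read 3.42, 3.6, 3.65 and 2.74 on wild type, 210-58, 226-47 and PJ34, a difference of -0.68 in which PJ34 was the only low array. On chromosome 9 at 42075934-42076154 the difference was also -0.68, but there both clones were lower still (3.91, 2.26, 2.90 and 3.23), with a whole DNA level of -2.42 and an SD over its 3 probes of 1.15. That fall rests on 1 probe, whose whole DNA level was -6.87 on wild type and -5.76 on PJ34, and the difference was -0.06 with normexp, -0.08 after loess and -0.06 with the median over probes. The next largest falls were on chromosome 9 at 44004240-44004571 (-0.53), chromosome 7 at 143984871-143985351 (-0.43) and chromosome 15 at 97948735-97949047 (-0.39). In each of them both clones were below wild type too, as at 3.79, 3.29, 3.16 and 3.26 in the chromosome 9 region.

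The third comparison sets the same clones against PJ34, and shares them with the first. By limma 3 of 662 members (0.453%) differed, all lower in the clones, while 1.35% of all regions passed (0.404% lower, 0.942% higher). At an unadjusted p under 0.05 there were 31 members (4.68%), all of them lower, against 8.30% of all regions. Of those 1172 regions, 740 (5.24% of all regions) were higher and only the rest lower, so the 2 shares mix directions. The rule and the growth of the SE with the level bear on these counts as in the first comparison. The chromosome 14 region at 67076809-67078483 was 2.57 lower (difference -2.57, SE 0.58, limma adjusted p = 0.00239). A region of 5 probes on chromosome 8 at 125756516-125757052 read 3.55 on wild type, 2.25 on clone 210-58, 2.11 on clone 226-47 and 4.18 on PJ34. The clones stood together (SD 0.100) below both J1 arrays, and the difference from PJ34 was -2.0 (SE 0.50, limma adjusted p = 0.00933); whole DNA there was -0.42 and -0.31 relative to wild type in the clones. The third call was the chromosome 10 region described above (-1.85, SE 0.53, limma adjusted p = 0.0402), which rests on clone 210-58: clone 226-47 was 0.06 above PJ34 there, so the call does not reflect both clones. None of the 3 passed after quantile normalization, loess or scaling by the median absolute deviation. Within the slide they share, clone 226-47 was below PJ34 by a median difference of -0.85 and above it in 3 members; the median was -0.02 after quantile normalization, -0.12 after loess and 0.59, with 595 members positive, after scaling by the median absolute deviation, so its direction depends on the scaling.

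Some members hardly differed among the samples. On chromosome 9 at 107968495-107968901 the arrays read 3.08, 3.1, 2.85 and 3.02, a range of 0.25. On chromosome 10 at 79715561-79716517, 8 probes gave 3.70, 3.73, 3.47 and 3.56, a range of 0.26. On chromosome 1 at 93174751-93176175, 14 probes gave 3.77, 3.6, 3.53 and 3.88, a range of 0.35. In all, 17 members had their 4 arrays within 0.5, and the median range over members was 0.90, against 0.59 over all regions. The median range was 0.78 against 0.36 with normexp and 0.91 against 0.51 after scaling by the median absolute deviation. After loess it was 0.44 against 0.38, and after quantile normalization 0.34 against 0.47, so which set varied more depends on the scaling.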

How the data were processed

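The authors' deposited intensity per spot is Agilent's processed signal, background-subtracted and dye-normalized in each channel by Feature Extraction 10.7.3.1 per the file headers, or 9.1 per the submitters' processing notes. Flags for outliers, saturation and signal above background were used as deposited. The deposited value table holds the authors' ratio per spot, linear and not centred, and was used as an alternative. Left out were 5950 control spots and, of 97651 probes, 442 that have no position and 30 flagged as outliers on at least 1 array. From each log2 ratio of Cy5 to Cy3 the median of its array was subtracted, and the result was averaged over the probes of a region, with no loess or quantile step.

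The test was limma's (version 3.58.1, R 4.3.3; lmFit, eBayes with a mean-variance trend) on 2 clones against 1 array, with 1 residual degree of freedom and a threshold of 0.05 after Benjamini-Hochberg adjustment over all regions. SEs follow the general trend and hardly reflect how far the clones differed in a region. The test takes the clones as independent and gives the single array their spread. Single arrays were compared by a difference of at least 1.

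Regions were named by rule: the highest members, those nearest the threshold, called members, the largest PJ34 differences, the largest and smallest differences between arrays, most probes, largest spread over probes, and members within 10 kb of each other, of which a few are printed; the 4 regions below 0 on a left-out array and the chromosome 13 region were chosen after their values were seen. The members and lists were chosen with earlier results of these data known. Lists that need a gene table of the files' build were not run. The alternatives were another background correction (normexp, offset 50), quantile, loess and scaling steps, region rules, probe filters, variance models and left-out arrays.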

Additional observations from a re-analysis of the deposited data

How the results depend on the processing

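The cause of the changes below was not tested unless an alternative's construction gives it (fewer probes, regions or arrays). With normexp background correction there were 367 members, 242 of them above 3 on every array, 4 called against wild type and 9 against PJ34, and 18 differed by at least 1 between PJ34 and wild type. With loess there were 151 members and 65 above 3 on every array, 0 calls in either comparison and 0 PJ34 differences of at least 1, and the median differences were 0.0902 (PJ34 minus wild type) and -0.17 (210-58 minus 226-47). Quantile normalization gave 0 calls in either comparison, 0 PJ34 differences of at least 1, and medians of -0.0545 and -0.00769. Scaling by the median absolute deviation gave 0 calls in either, 1 PJ34 difference of at least 1, and medians of -0.0334, -0.81 and 0.13 (clones minus wild type). Requiring at least 5 probes left 205 members, 143 above 3 on every array, 0 calls against wild type and 12 PJ34 differences of at least 1. Calls against wild type numbered 1 with the median over probes (neither of the regions reported), 1 with probes well above background only, 15 and 1 at thresholds of 2.5 and 3.5, and 7 without the mean-variance trend; against PJ34 they were 14 and 1 at those thresholds and 19 without the trend. Without each array in turn there were 638 to 723 members and 495 to 616 above 3 on every remaining array. Without clone 210-58 or 226-47 the median difference from wild type was -0.40 or 0.03, and 54 or 19 members differed from wild type by at least 1. The median difference between the clones was 0.20 with normexp, and that of the clones from wild type -0.08 after quantile normalization. No paired analysis was possible because the labels give no replicate numbers that the groups share, and a slide term would use up the residual degrees of freedom, so within-slide differences stand in its place.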
